A study of Mus musculus with 4 samples.

Results

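The 10 genes described here control, release, store or move iron, or break down haem, and they were measured in the hearts of mice given cyclophosphamide (CY), its metabolite acrolein, or N-acetylcysteine (NAC) before CY. They were selected by name after earlier results of these arrays were known, so they were chosen from measured values of the same contrasts, and every value below is a description with no test. They are 10 of the 20738 genes that were detected on at least 1 array, and of 37074 gene names on the array. The members are hepcidin (Hamp), the haem oxygenases Hmox1 and Hmox2, the biliverdin reductase Blvrb, the ferritin subunits Fth1 and Ftl1, ferroportin (Slc40a1), the transferrin receptor Tfrc, the divalent metal transporter Slc11a2 and the growth factor Bmp6.

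The study asked how a high dose of CY changes the heart, whether acrolein has the same effects and whether NAC, a thiol antioxidant, alters them. Female C57BL/6J mice, aged 6 weeks by the labels (the methods give a slightly lower age), were injected intraperitoneally each day for 2 days and their hearts were taken 3 h after the last dose. The NS group received normal saline, the CY group 400 mg/kg CY, the acrolein group 5 mg/kg acrolein, and the NAC + CY group 200 mg/kg NAC ahead of 400 mg/kg CY. Heart RNA of each group was read on 1 single-colour array, 4 arrays in all, so nothing here can be checked against replicates and p-values are not given. The series text speaks of 3 independent studies, whether the RNA of several mice was pooled is not given in the sources used here, and NAC without CY was not analysed here.

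Hepcidin is a small peptide hormone, made mainly by the liver and at a lower level by the heart, that binds ferroportin, the iron exporter of the cell, and causes its degradation. Its transcription is driven by bone morphogenetic proteins such as BMP6, which act through SMAD factors, and by interleukin-6, which acts through STAT3. Haem oxygenase opens the haem ring and frees its iron, biliverdin reductases reduce the pigment that is left, and ferritin, a shell of heavy (Fth1) and light (Ftl1) chains, stores the iron. The mRNAs of ferritin, ferroportin and the transferrin receptor carry iron-responsive elements, which tie their translation or their stability to the iron in the cell. In tissue RNA, fewer cells of a type and less RNA per cell cannot be told apart.

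Hepcidin has a paralogue in the mouse, Hamp2, and the sequences of the probes are shown because the level of Hamp depends on how well its probe separates the pair. Both lie on the minus strand of chromosome 7 in the mm9 build, the Hamp probe at chr7:31727490-31727549 and the Hamp2 probe at chr7:31707520-31707579. Over the 59 bases that they share, 42 were identical (71.2%) and 17 differed. Capitals mark the bases that differ between the probes.
Hamp probe: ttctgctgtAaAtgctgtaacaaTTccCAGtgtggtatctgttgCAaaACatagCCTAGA
Hamp2 probe: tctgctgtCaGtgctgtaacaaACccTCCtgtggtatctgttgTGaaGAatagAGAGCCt
Cross-hybridisation between Hamp and Hamp2 RNA was not tested, and the same holds for the ferritin genes, which have many near-identical copies in the genome.

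The 250 bases before the start of Hamp and of Hamp2 are shown because the pair was brighter on the same array and the known regulators of hepcidin bind there. The sequences are those of RefSeq on GRCm38.p6, at chr7:30944030-30944279 for Hamp and chr7:30924182-30924431 for Hamp2, both on the minus strand. Capitals mark matches, on either strand, to GGCGCC, the core of the BMP response element, and to TTCNNNGAA, the STAT site.
Hamp promoter: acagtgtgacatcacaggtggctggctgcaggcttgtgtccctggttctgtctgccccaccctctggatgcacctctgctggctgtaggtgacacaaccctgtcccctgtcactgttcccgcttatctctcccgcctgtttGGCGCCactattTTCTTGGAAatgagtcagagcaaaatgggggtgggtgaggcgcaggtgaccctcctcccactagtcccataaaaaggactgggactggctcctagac
Hamp2 promoter: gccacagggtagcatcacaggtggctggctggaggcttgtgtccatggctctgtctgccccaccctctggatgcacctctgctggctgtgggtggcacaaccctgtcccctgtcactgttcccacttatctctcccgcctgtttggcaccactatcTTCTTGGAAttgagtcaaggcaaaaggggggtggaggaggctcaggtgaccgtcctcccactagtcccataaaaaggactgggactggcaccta
The Hamp window held a STAT match that begins 97 bases before the start and a BMP response element that begins 109 bases before it. The Hamp2 window held the STAT match alone, 94 bases before the start. Over 32851 promoter windows of the same length, 7.02% held the STAT letters and 9.59% held GGCGCC, so a match is common and says nothing of binding. The antioxidant response element was searched as TGACNNNGC, which 10.2% of the upstream windows held, and neither window had it. In the full windows of 300 bases, 7 of the 10 members were present. Besides Hamp, Bmp6 had the antioxidant letters, Hmox2 and Tfrc had GGCGCC and no other member had the STAT letters. Of all full windows, 12.4% held the antioxidant letters, 11.9% GGCGCC and 8.30% the STAT letters, so a few matches among the members are common too. Promoters of Hmox1, Slc40a1 and Slc11a2 were not in the table.

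Values are normalised signals in arbitrary units, which compare 1 probe across arrays and not 1 gene with another. A probe was called higher in a comparison when its Z-score, the distance of its log2 ratio from the mean of 200 probes of similar brightness in units of their SD, was at least 2 and its ratio at least 1.5. It was called lower at a Z-score of -2 or less and a ratio of 0.66 or less, and a gene stands for its brightest detected probe. The error model of the scanner software gives each spot an SD of about 10%, which makes an SD of 0.20 to 0.28 for the log2 ratios of the members, without any spread between mice. The members had 18 probes, of which 16 were well above background on all 4 arrays and 2, a second probe each of Hmox1 and Slc40a1, on none. Of 56605 probes, 47.1% were well above background on the NS array and at least 49.6% on each of the others, and the SD of repeated spots was 0.06 to 0.07 on the log2 scale.

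After CY, hepcidin, haem oxygenase 1, the ferritin light chain and ferroportin were called higher and the transferrin receptor was called lower. Of the 10 members, 4 were called higher (Hamp, Hmox1, Ftl1 and Slc40a1), beside 3.38% of 19721 genes tested, and 1 was called lower (Tfrc), beside 2.81%. The median log2 ratio of the members was 0.59, against -0.02 for all genes tested. Acrolein gave 0 members called higher, beside 1.08% of 19700 genes, and 1 called lower (Hamp), beside 1.29%, and the median of the members was -0.07 against 0.01. With NAC before CY, 3 members were called higher against NS (Hmox1, Fth1 and Ftl1), beside 2.68% of 19808 genes, and 1 lower (Tfrc), beside 2.59%, with a median of 0.49 against -0.01. Set against the CY array, the NAC + CY array had 0 members called higher, beside 1.54% of 20083 genes, and 3 called lower (Hamp, Hmox1 and Slc40a1), beside 2.82%, with a median of -0.12 against 0.02. Because the members were chosen with these contrasts known, nothing is read from the counts against the shares of all genes. The comparisons with NS share the NS array, and the SD of the ratios in a window differed between them, with a median of 0.58 for CY, 0.54 for NAC + CY and 0.22 for acrolein.

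**Figure D1:**
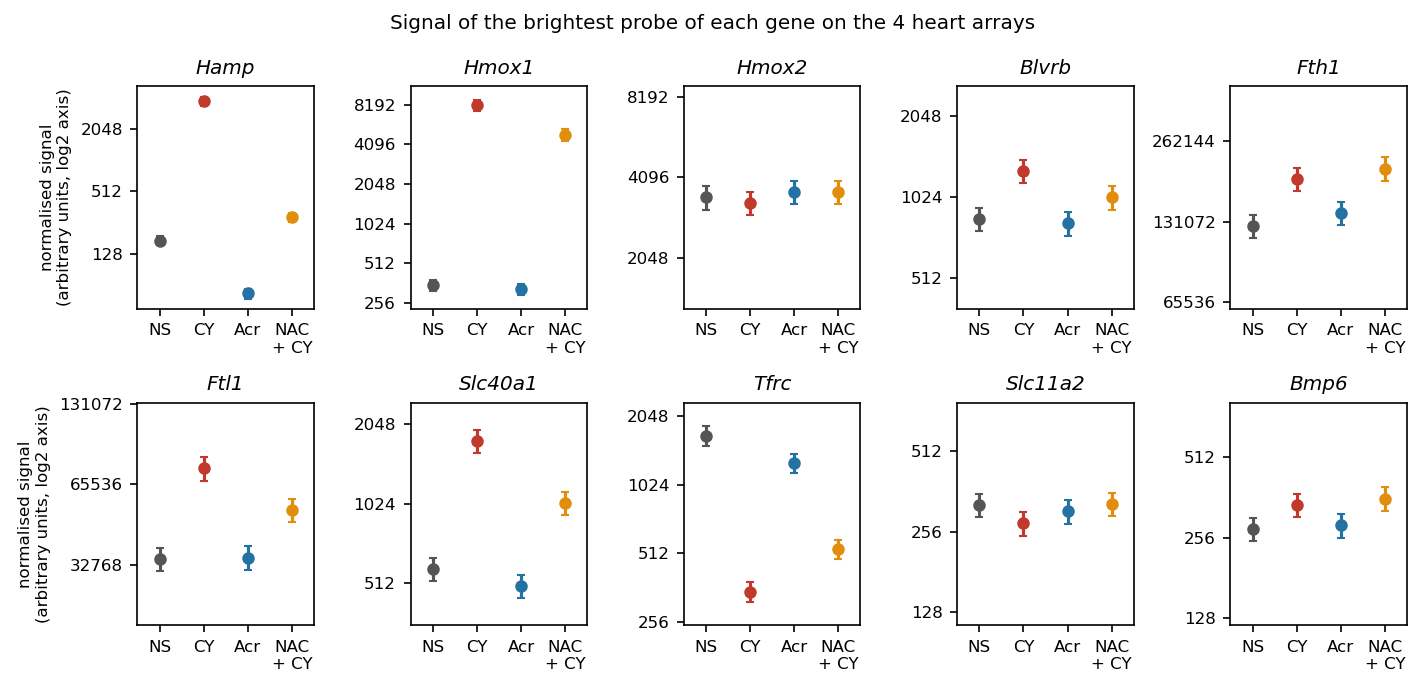
Normalised signal (arbitrary units, log2 axis with a separate range per panel) of the brightest probe of each of the 10 genes on the NS, CY, acrolein (Acr) and NAC + CY arrays. Points are single arrays and bars are the SD of the spot error model; Hamp ran from 53.0 with acrolein to 3761 with CY, while Hmox2 stayed between 3298 and 3619.

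Hepcidin and Hmox1 had the largest Z-scores of all genes tested for CY against NS, and the order of the pair depended on the setting. The Hamp signal was 171 with NS, 3761 with CY, 53.0 with acrolein and 287 with NAC + CY. It was thus high on 1 array, intermediate on the NS and NAC + CY arrays and lowest with acrolein, where it was still well above background. The log2 ratio was 4.46 for CY (Z-score 8.34, rank 1 of 19721 genes as computed here) and -1.69 for acrolein (Z-score -6.06, rank 12 from the bottom). Hmox1 had the higher Z-score of the pair under 3 of the 11 alternatives, with 8.58 against 7.64 under normexp background correction, 9.38 against 8.09 with a wider window of probes and 13.9 against 13.8 with median and MAD centring. Hamp was the single member whose calls for CY and acrolein against the shared NS array had opposite signs. With NAC + CY the log2 ratio to NS was 0.75 (Z-score 1.27), which was not called, and that to CY was -3.71 (Z-score -9.94), the second lowest of 20083 genes. The log2 change with NAC + CY was 16.8% of that with CY. Under normexp background correction the acrolein ratio was -1.04, the smallest in size of all settings tried, and it was called under each of them.

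Hamp2, the paralogue of hepcidin, was much nearer the limit of detection. Its signal was 23.3 with NS, 121 with CY, 22.1 with acrolein and 50.4 with NAC + CY. The log2 ratio to NS was 2.38 for CY (called higher), -0.08 for acrolein and 1.11 for NAC + CY (neither called). Hamp2 therefore shared the high value on the CY array with Hamp, and the low value with acrolein was measured for Hamp and not called for Hamp2. The difference between the pair was not tested.

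Bmp6, the ligand that raises hepcidin in response to iron, showed values of 276 with NS, 340 with CY, 285 with acrolein and 358 with NAC + CY. Its log2 ratios to NS were 0.30, 0.05 and 0.38 in the order CY, acrolein and NAC + CY, and none was called. The CY and NAC + CY arrays were the higher pair for Bmp6, with a log2 ratio of NAC + CY to CY of 0.08, against -3.71 for Hamp.

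Haem oxygenase 1, the inducible form of the enzyme, was high after CY with or without NAC, and with acrolein it was not called. The Hmox1 signal was 349 with NS, 8135 with CY, 325 with acrolein and 4850 with NAC + CY, a split into a high and a low pair of arrays. The log2 ratio was 4.54 for CY (Z-score 7.84, rank 2, and above Hamp under the 3 alternatives named), -0.10 for acrolein (Z-score -0.41) and 3.80 for NAC + CY (Z-score 8.38, rank 16). Set against CY, NAC + CY was called lower, with a log2 ratio of -0.75 (Z-score -3.19), and 83.6% of the log2 change with CY was present with NAC + CY. Hmox1 and Hamp were therefore alike with CY and unlike with NAC + CY, as measured on 1 array each. The Hmox1 probe used lies at chr8:77624406-77624466 (mm9).

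Haem oxygenase 2, the constitutive form, was flat. Its brighter probe read 3450 with NS, 3298 with CY, 3619 with acrolein and 3611 with NAC + CY, and the other read 1293, 1362, 1399 and 1475 in the same order. No log2 ratio of either probe to NS exceeded 0.19 in size and none was called. Blvrb, a reductase of biliverdin and flavins, read 848 with NS, 1276 with CY, 816 with acrolein and 1018 with NAC + CY. Its ratio with CY, 1.505, passed the required ratio, but the Z-score was 1.18 and it was not called, and its log2 ratios of -0.06 with acrolein and 0.26 with NAC + CY were not called either. Blvra, the main biliverdin reductase of adults and no member, had log2 ratios of -0.12, -0.10 and -0.35 for CY, acrolein and NAC + CY and was not called.

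The ferritin light chain was called higher with CY and with NAC + CY, and the heavy chain with NAC + CY alone. The light chain Ftl1 read 34472 with NS, 75067 with CY, 34915 with acrolein and 52696 with NAC + CY on its brighter probe, so the NS and acrolein arrays were alike and NAC + CY stood between them and CY. The log2 ratio to NS was 1.12 for CY (Z-score 2.87, called), 0.02 for acrolein and 0.61 for NAC + CY (Z-score 2.05, called by a narrow margin). The second Ftl1 probe gave 1.09 for CY, which was called, and 0.49 for NAC + CY, which was not. Against CY the probes gave -0.51 and -0.60, and only the second passed the ratio for a lower call. The heavy chain Fth1 read 126272 with NS, 188969 with CY, 141028 with acrolein and 206776 with NAC + CY. Its ratio of 1.497 with CY (log2 0.58, Z-score 2.03) fell just short of the required 1.5, and with NAC + CY the log2 ratio was 0.71 (Z-score 2.80, called higher). NAC + CY was the highest array for Fth1 and CY for Ftl1, and the log2 ratios of NAC + CY to CY were 0.13 and -0.51. Fth1 depended on the scaling: with each array set to its 75th percentile in place of quantile normalisation, its log2 ratio was 0.29 for CY and 0.42 for NAC + CY, and neither was called. The NAC + CY call of Ftl1 was lost there as well, at 0.43.

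**Figure D2:**
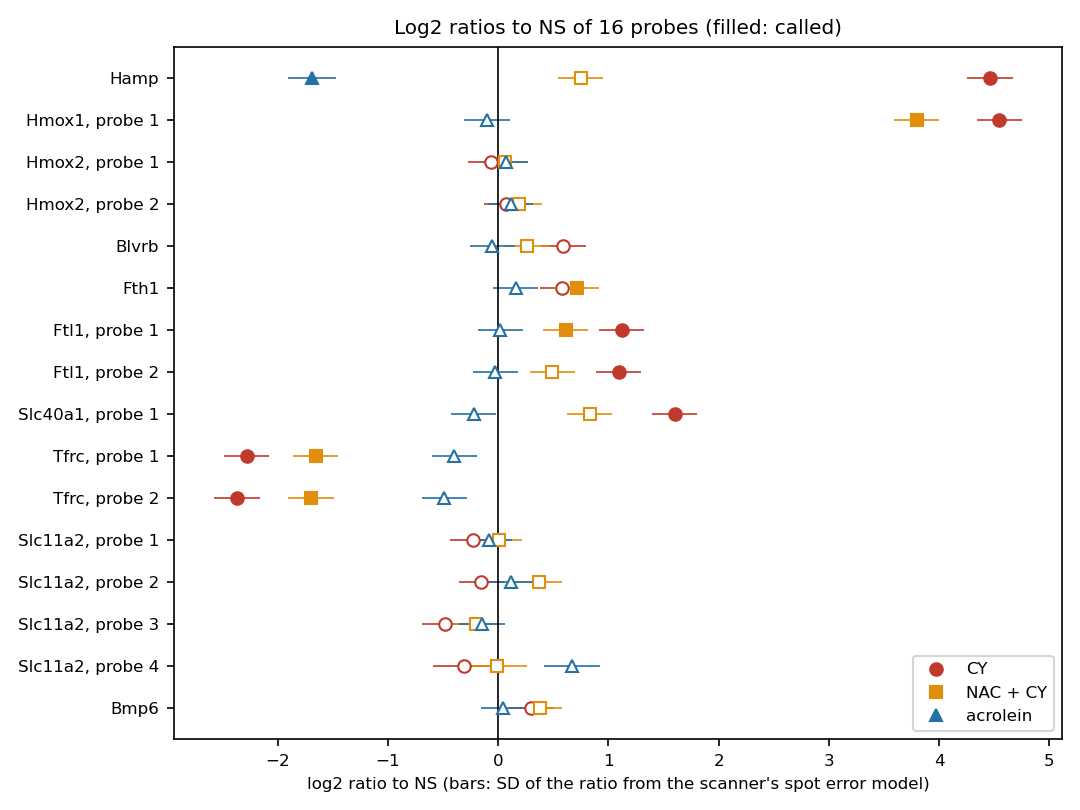
Log2 ratio to NS (horizontal axis) of the 16 measured probes of the members where circles stand for CY, squares for NAC + CY and triangles for acrolein. Filled symbols were called and bars are the SD of the ratio from the spot error model; the CY values run from -2.37 for the second probe of Tfrc to 4.54 for Hmox1, and the single filled triangle is Hamp at -1.69.

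Ferroportin, the exporter that hepcidin acts on, was higher with CY. The Slc40a1 signal was 581 with NS, 1764 with CY, 499 with acrolein and 1034 with NAC + CY. The order of the arrays was that of Ftl1, with CY highest, NAC + CY between and the NS and acrolein arrays low. The log2 ratio to NS was 1.60 for CY (Z-score 2.91, called higher), -0.22 for acrolein and 0.83 for NAC + CY (Z-score 1.43, not called). Against CY, NAC + CY was called lower at -0.77 (Z-score -3.41), and 51.9% of the log2 change with CY was present. The mRNA of ferroportin and that of its ligand hepcidin were thus both highest on the CY array, and the protein of neither was measured.

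The transferrin receptor, which takes up transferrin-bound iron, was low on the arrays with CY. The brighter Tfrc probe read 1686 with NS, 346 with CY, 1278 with acrolein and 535 with NAC + CY, and the other read 484, 93.8, 345 and 149. Both probes gave the same order, with NS highest and CY lowest. The log2 ratio to NS was -2.28 for CY (Z-score -4.32, rank 13 from the bottom) and -1.66 for NAC + CY (Z-score -2.88), both called, and the second probe gave -2.37 and -1.70, both called. With acrolein the probes gave -0.40 and -0.49 with Z-scores of -3.41 and -2.75, and neither passed the ratio. NAC + CY was above CY by 0.63 and 0.67 on the log2 scale, without a call.

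Slc11a2, the divalent metal transporter DMT1 that carries iron out of endosomes, showed no call on any of its 4 probes. The brightest probe read 322 with NS, 274 with CY, 305 with acrolein and 324 with NAC + CY. The log2 ratios to NS of the brighter 3 probes lay between -0.48 and 0.37. The dimmest probe read 36.8, 29.7, 58.5 and 36.6, and its log2 ratio of 0.67 with acrolein had a Z-score of 1.97. The probes of the gene did not give 1 order of the arrays, and those of Tfrc did.

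Other genes of iron and haem were followed in 6 lists of 97 genes, 93 of which were detected. Against NS, CY had 10 of 89 tested genes called higher (11.2%, beside 3.38% of all genes) and 1 lower (1.12%, beside 2.81%). Acrolein had 4 of 89 called higher (4.49%, beside 1.08%) and 2 lower (2.25%, beside 1.29%), and NAC + CY had 7 of 92 called higher (7.61%, beside 2.68%) and 2 lower (2.17%, beside 2.59%). The median log2 ratio of the lists together was 0.12, 0.01 and 0.16, beside -0.02, 0.01 and -0.01 for all genes. The lists were written with earlier results of these arrays known, and these counts carry no test.

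Among 24 tested genes of hepcidin control, CY had 5 called higher, Hamp2, Id1, Inhbb, Socs3 and Gdf15, and 0 lower, where 3.38% of all genes were called higher and 2.81% lower. The list median was 0.42, or 0.41 with genes not well above background at their bound. Id1, a target of BMP signalling, read 3372 with NS, 5452 with CY, 2883 with acrolein and 4115 with NAC + CY, and was called for CY alone (log2 ratio 0.69). Smad6, Smad7 and Atoh8, of the same list, were not among the genes called with CY, and BMP signalling itself was not measured. Inhbb, the subunit of activin B, had a log2 ratio of 1.27. Socs3, a target and inhibitor of STAT3 signalling, was called higher on all 3 treated arrays, at 1.46 with CY, 1.09 with acrolein and 1.80 with NAC + CY. So was Gdf15, a stress cytokine of the TGF-beta family, at 2.95, 0.59 and 3.24. With acrolein, 3 of 24 tested genes of this list were called higher, beside 1.08% of all genes, and 0 lower, beside 1.29%. They were Socs3, Gdf15 and Il1b, an inflammatory cytokine that was at least 3.45-fold higher than with NS. Hamp was lowest on that array, and any link of these genes to the Hamp values was not tested. Il6 was well above background on the CY array alone, at 21.8, and was not called. Bmp2, another ligand that induces hepcidin, read 51.6, 111, 42.0 and 40.5 in the order NS, CY, acrolein and NAC + CY, and was called lower with NAC + CY than with CY (-1.45). Bmpr1a, a BMP receptor, was called lower with NAC + CY against NS (-0.88).

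Iron transport and storage had 3 of 20 tested genes called higher with CY, beside 3.38% of all genes, namely transferrin (Trf, 0.88), the metal importer Slc39a8 (2.68) and the siderophore-binding lipocalin Lcn2 (2.47). Slc39a8 read 87.6 with NS, 562 with CY, 67.8 with acrolein and 123 with NAC + CY, so CY was the high array, and NAC + CY was called lower than CY at -2.19. Lcn2 was called higher on every treated array, at 0.73 for acrolein and 2.70 for NAC + CY. With NAC + CY the mitochondrial iron importer Slc25a28 was called higher as well, at 0.71. Cybrd1, a ferric reductase, read 37.6 with NS, 70.3 with CY, 14.9 with acrolein and 22.2 with NAC + CY, and was called lower with acrolein (-1.33) and with NAC + CY against CY (-1.66).

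Haem synthesis had 0 of 12 genes called against NS on any treated array, with medians of -0.08 with CY, 0.05 with acrolein and 0.07 with NAC + CY. Against NS, at most 3.38% of all genes were called higher and at most 2.81% lower in a comparison, so 0 calls in so short a list say little. Alas1, the first enzyme of the pathway in non-erythroid cells, had a log2 ratio of -0.79 with CY (Z-score -1.45) and was called higher with NAC + CY than with CY, at 0.70. Of the haem transport and clearance genes, haptoglobin (Hp), which binds free haemoglobin, read 438 with NS, 2696 with CY, 254 with acrolein and 6718 with NAC + CY. Hp was called higher with CY (2.62) and NAC + CY (3.94) and lower with acrolein (-0.79), which are the directions of Hamp for CY and acrolein. Haemopexin (Hpx), which binds free haem, was well above background with NAC + CY alone, where it was at least 30.0-fold higher than with NS and at least 38.5-fold higher than with CY. Among 10 regulators of Hmox1, Maff was called higher with CY (1.42) and NAC + CY (1.44), and Bach2 lower (at least 4.63-fold with CY, and a log2 ratio of -1.59 with NAC + CY). Nfe2l2 and Bach1, the activator and repressor best known for Hmox1, had log2 ratios of 0.20 and -0.07 with CY and were not called. The 13 genes of iron-sulfur cluster assembly had 0 calls in each of the 4 comparisons. At most 3.38% of all genes were called higher and at most 2.82% lower in a comparison, so this again says little. Their median was -0.21 for CY.

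**Figure D3:**
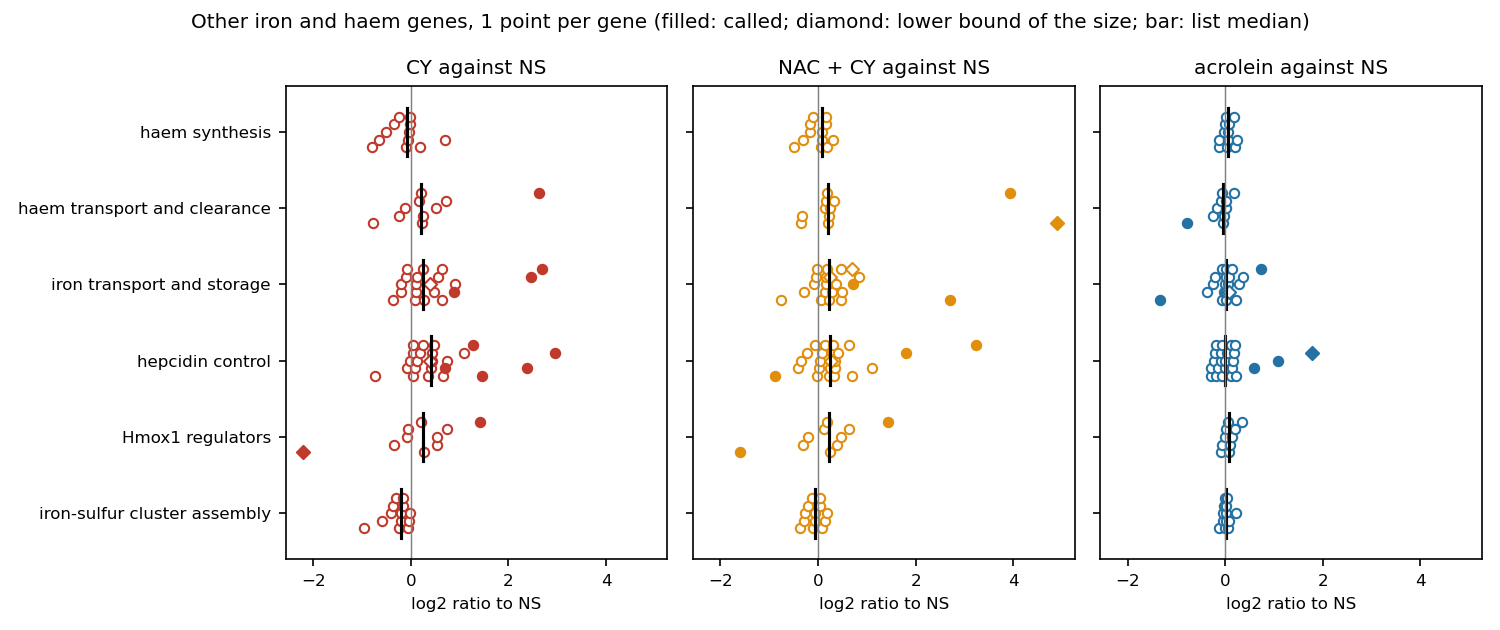
Log2 ratio to NS (horizontal axis, the same in all panels) of the tested genes in 6 iron and haem lists, with 1 point per gene, called genes filled and the list median as a bar. Diamonds are lower bounds of the size for genes not well above background on an array, such as Hpx with NAC + CY at 4.91 or more. Tmprss6 with NAC + CY has no bound above 0 and is left out. Haem synthesis and iron-sulfur cluster assembly had 0 calls against NS, beside at most 3.38% of all genes called higher and at most 2.81% called lower.

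Markers of other tissues moved between the arrays and are given beside the members, because their part in these results was not tested. All 10 cardiomyocyte markers were well above background on every array, as the heart label requires. Their summed signal was 0.83 to 0.98 of NS on the treated arrays. With CY, 3 of them (Actc1, Ryr2 and Tcap) were called lower, beside 2.81% of all genes. Markers of atrial muscle were higher with CY, where 7 of 8 were called, beside 3.38% of all genes. Their summed signal was 307015 with NS, 816451 with CY, 383348 with acrolein and 495783 with NAC + CY. Against CY, 6 of the 8 were called lower with NAC + CY, beside 2.82% of all genes. Against NS, 5 of 7 tested atrial markers were still called higher with NAC + CY, beside 2.68% of all genes, and Hamp was not called there. Bmp10, an atrial BMP ligand, was well above background on the CY array alone, at least 6.29-fold above NS. The summed atrial signal and Hamp were thus both highest with CY, and with acrolein the atrial sum was above NS while Hamp was below it.

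Hepatocyte markers were followed because the liver is the main source of hepcidin. Their summed signal was 2489 with NS, 8283 with CY, 1972 with acrolein and 16640 with NAC + CY. On the NS, CY and acrolein arrays 9 of the 14, albumin (Alb) and fibrinogen genes among them, were not well above background. On the NAC + CY array all 14 were, with 11 called higher against NS, beside 2.68% of all genes. Alb was at least 229-fold higher there. The array with the highest Hamp, that of CY, had 3 of 5 tested hepatocyte markers called higher (Ttr, Ahsg and Tat), beside 3.38% of all genes. Alb was not well above background on it. The array with detectable Alb had a Hamp signal of 287. Any part of liver RNA in the Hamp values was not tested. The high values of Hp and Hpx with NAC + CY stand on the array with the liver markers. Tfr2 and Tmprss6, of the iron and hepcidin lists, were well above background on that array alone, at 26.8 and 16.2, without a call. All other NAC + CY values, those of Fth1, Ftl1 and Alas1 among them, come from the same array. Any part of liver RNA in them was not tested.

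Markers of red blood cells, which hold most of the haem of the blood, had a summed signal of 364725 with NS, 367666 with CY, 279518 with acrolein and 157947 with NAC + CY. With NAC + CY 7 of 9 detected markers were called lower against NS, beside 2.59% of all genes. They included alpha and beta globin genes, whose near-identical copies the probes may not separate. Hmox1 and Tfrc were called on that array too, and the part of red blood cell RNA in their values was not tested. Of 16 macrophage markers, CY had Vsig4 (at least 7.92-fold) and Lyve1 (1.89) called higher, beside 3.38% of all genes. NAC + CY had 5 called lower than CY, beside 2.82% of all genes. Among these 5 was Cd163, the receptor for haptoglobin-bound haemoglobin (-0.83). The summed macrophage signal was 10249, 12142, 10764 and 7686 in the order NS, CY, acrolein and NAC + CY. Endothelial markers summed to 34272, 31462, 29339 and 27949, and Kdr was called lower with CY (-1.92) and with NAC + CY (-1.50).

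**Figure D4:**
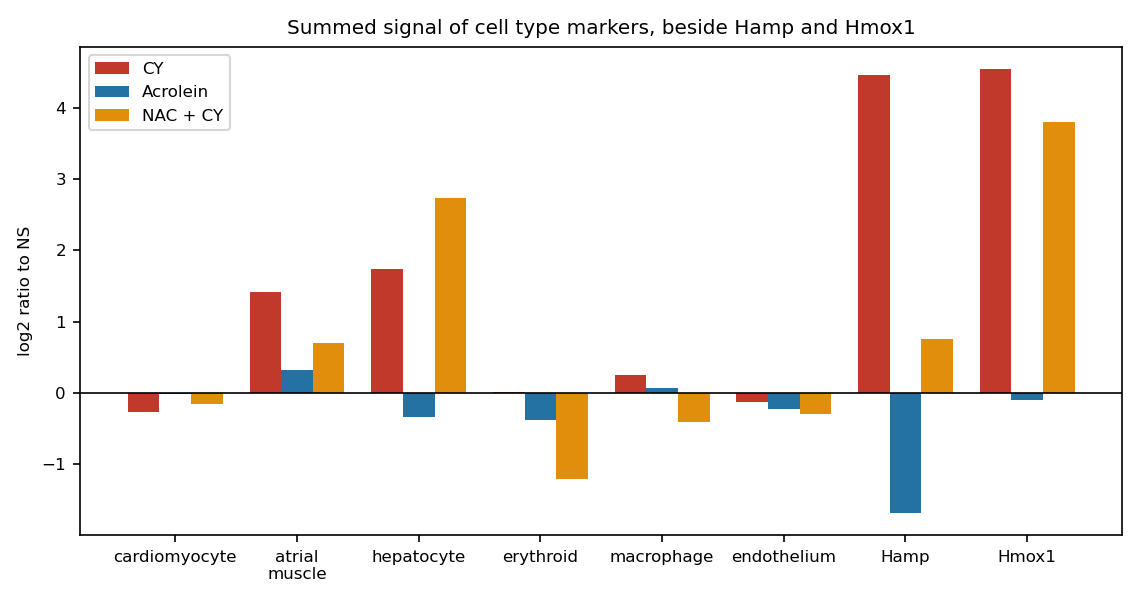
Log2 ratio to NS of the summed signal of 6 cell type marker lists, and of the signals of Hamp and Hmox1, on the CY, acrolein and NAC + CY arrays. The hepatocyte bar is highest with NAC + CY and the atrial bar with CY, where Hamp stands at 4.46; the erythroid bar is lowest with NAC + CY.

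The genes nearest to Hamp over the 3 log2 ratios to NS, by Euclidean distance among 20738 genes, were Dmkn (0.81), Clec1b (1.59), Tmem40, Alox8 and Rgs18. Dmkn, which encodes the secreted epithelial protein dermokine, read 61.7 with NS, 1370 with CY, 33.4 with acrolein and 113 with NAC + CY. Clec1b, a C-type lectin receptor of platelets, read 31.6, 494, 22.2 and 27.6 in that order. Tmem40, Alox8 and Rgs18 were well above background on 2 arrays. The genes nearest to Hmox1 were 1700007K13Rik (0.60), Fam183b, Gtse1, Pmaip1 and Tcp11, and each was well above background on 2 arrays, so their ratios rest on signals near the limit of detection on the others. The distance is a description of 4 arrays, and no shared function is read from it.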

How the data were processed

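Heart RNA of 4 groups was labelled with Cy3 and hybridised to 1 single-colour Agilent array each. The deposited intensity values are the authors' background-subtracted spot signals from Agilent Feature Extraction. The file headers name version 10.7.1.1, while 9.5.1.1 stands in the notes of the submitters. The authors' deposited value table, used as an alternative, holds linear intensity values with a median of 13.9 for each array. Its log2 values had a correlation of at least 0.999 with the scanner signals after the normalisation made here. This alternative therefore differs little from the main setting.

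Here the log2 signals of 59305 non-control spots were quantile-normalised over the arrays and averaged per probe, which gave 56605 probes, of which 30409 carried a P flag (positive, well above background, not saturated, no outlier flag) on at least 1 array. Intensity-based Z-scores and ratios are named in the methods of the study, and the window of 200 probes was set here. A comparison kept probes with a P flag on at least 1 of its arrays. The members and lists were chosen with earlier results of these data known. Members were matched by the gene name in the array files and named in full; of the iron and haem lists the called genes were named, of the marker lists some examples, and the 5 genes nearest to Hamp and to Hmox1. A few further genes of known role (Blvra, Nfe2l2, Bach1, Il6, Smad6, Smad7, Atoh8) were named after the results were seen. An "at least" fold sets the bright signal against the lowest signal well above background on the other array, or the dim probe's own where that is higher. Probe positions are on mm9, and no genome or annotation of that build was used here. The calling was run on simulated arrays, made from the NS signals with noise smaller than the spread of the CY and NAC + CY ratios. That run checks the code and says nothing of the reliability of the calls given here. With 1 array a group, the number of arrays sets the precision. Python 3.11.15, numpy 2.4.6, pandas 2.3.3, R 4.3.3 and limma 3.58.1 (normexp) were used, and 11 alternatives were run.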

Additional observations from a re-analysis of the deposited data

How the results depend on the processing

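All 11 alternatives were run, and 8 of 88 counts of called members moved by more than 1.5 times. With a Z-score of 3, the members called higher were 2 for CY (Hamp and Hmox1) and 1 for NAC + CY against NS (Hmox1), and 0 were called lower for NAC + CY against NS. With scaling to the 75th percentile, 1 member was called higher for NAC + CY against NS (Hmox1). With median and MAD centring of the Z-score, and with the ratio alone, 5 were (Hamp, Hmox1, Fth1, Ftl1 and Slc40a1), and 1 was called higher for NAC + CY against CY (Tfrc). The stricter Z-score and the ratio alone change the criteria by construction, and the cause of the other moves was not tested. Of 440 member ratios under the alternatives, 416 kept their direction and their side of the criteria. Among the rest, 7 small ratios that were not called (at most 0.08 in size) changed sign, 9 lost a call, 8 gained one and 0 reversed a called direction. These counts overstate the stability. Alternatives that changed only the filter, the window, the centring or the criteria kept every ratio by construction, so no direction could change there. The median over probes also kept the ratios of members with 1 tested probe, such as Hamp and Hmox1. The deposited value table was close to the main signals. The changes of the filter left the Z-scores of the members unchanged as well. Across all settings the log2 ratio for CY ran from 4.05 to 4.47 for Hamp, from 4.32 to 4.56 for Hmox1 and from -2.33 to -2.10 for Tfrc. No paired analysis was possible because each condition has 1 array, and none could be left out. Signals near background, as for Hamp2 and the dimmest Slc11a2 probe, limit what a ratio can show, and the spread between mice is unknown.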
